A study of Mus musculus with 12 samples.

Results

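Platelet-derived growth factors and stem cell factor signal through a small family of receptor tyrosine kinases that cediranib inhibits beside the VEGF receptors. The genes described here are the PDGF receptors Pdgfra and Pdgfrb, the stem cell factor receptor Kit, and the ligands Kitl, Pdgfa, Pdgfb, Pdgfc and Pdgfd. They were chosen by name, 8 of the 54232 genes in the count table, and their transcripts were compared between 4 treatments of SVR tumors. Of these 8 genes, 7 passed the filter on low counts and were tested among 12897 genes, and Pdgfd did not.

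SVR is a mouse endothelial cell line transformed with H-ras that is used as a model of angiosarcoma, and the labels give its strain as C57BL/6. The cells were grown as xenografts in adult nude mice, a strain that lacks most T cells, and the 12 tumors fall into 4 groups of 3. Control mice were gavaged daily with vehicle, a mixture of cremaphor, PEG 400 and tween. The Trametinib group received 1 mg/kg of trametinib, an inhibitor of the MAPK kinases MEK1 and MEK2, and the Cediranib group received 3 mg/kg of cediranib. The Combination group received both drugs. All tumors carried the same oncogene and came from 1 cell line. Dosing started some days after injection. The labels give ulceration or a size limit as its end, while the study also had an experiment with a common endpoint, and the sources used here do not say which of them gave these tumors. Whether time on treatment differed between the groups is therefore not known. Tumor cells, blood vessels, stroma and skin were all mouse tissue, and the alignment does not separate them. In RNA of whole tumors, fewer cells of a type and less RNA per cell cannot be told apart.

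PDGF ligands act as dimers. PDGF-A homodimers bind PDGFRα, PDGF-B binds both receptors, PDGF-C acts mainly on PDGFRα and PDGF-D mainly on PDGFRβ, the last pair only after a protease has removed an inhibitory domain. In a vessel wall, endothelial cells release PDGF-B and pericytes carry PDGFRβ, an arrangement that recruits pericytes to new vessels, while PDGFRα is typical of fibroblasts and other mesenchymal cells. KIT is the receptor of stem cell factor, the product of Kitl, and is typical of mast cells, melanocytes and blood progenitors. The receptors belong to class III of the receptor tyrosine kinases, and a ligand-bound receptor feeds RAS and MEK, among other routes.

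The libraries held 9478865 to 11666094 counts. The markers of skeletal muscle summed to 16670 CPM (counts relative to the TMM-scaled library total) in Control 2 and 23780 CPM in Trametinib 2, against 5.46 to 2046 CPM in the other tumors. Results were therefore also computed without this pair of libraries. Of the endothelial identity genes, Pecam1, a junction protein, was low, with 3.14 to 4.6 CPM in the controls, and Emcn was at or near 0 in all tumors. Tie1, an endothelial receptor, was at 108.1 to 181.1 CPM in the controls and Cdh5, the cadherin of endothelial junctions, at 45.3 to 120.4 CPM. Nothing in the labels says how the 3 tumors of a group relate to each other, so p-values measure the spread between these samples only.

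Levels of different genes are set side by side as CPM per kilobase of exon. This removes the effect of length but not that of the exome probes with which the RNA was captured, so the order, sums and shares given on this scale are those of captured reads and need not be those of transcripts. Over all 12 tumors, Kitl had the highest captured level of the 8 genes, with a mean of 18.2 CPM per kb, and ranked first among them in 11 of 12 tumors. Control 3 was the exception, where Pdgfrb ranked first. Pdgfrb followed with 3.27 CPM per kb, Pdgfra with 2.12, Pdgfa with 1.69 and Pdgfb with 1.35. Pdgfc at 0.581 and Kit at 0.409 CPM per kb were low, and Pdgfd, at 0.0340 CPM per kb, was close to undetected. Among all genes tested, the captured level of Kitl per kb stood at percentile 82.0 and that of Pdgfrb at 48.6, while Kit stood at percentile 11.2.

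**Figure D1:**
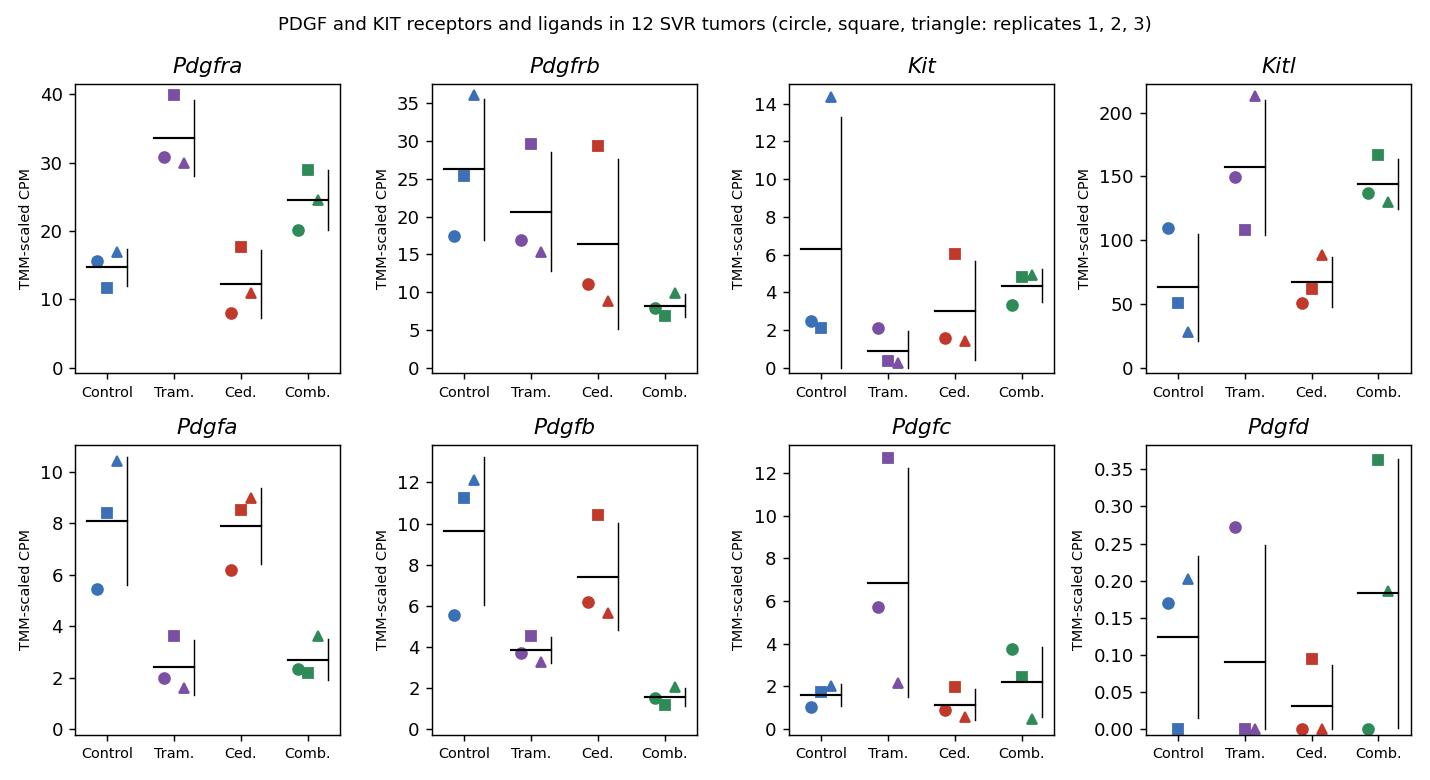
Level of each gene in TMM-scaled CPM (vertical axes, linear) in every tumor of the 4 groups; circles, squares and triangles are replicates 1, 2 and 3, the horizontal line is the mean and the vertical line spans 1 SD either side, ending at 0 where it would pass below. Pdgfa and Pdgfb lie lower, and Pdgfra higher, in all tumors that received trametinib than in all that did not.

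Pdgfb, the endothelial ligand of both receptors (ENSMUSG00000000489, GRCm38 chr15:79995874-80014808, minus strand), was at 5.54, 11.2 and 12.1 CPM in the 3 controls. It measured 3.72, 4.54 and 3.27 CPM after trametinib, and 6.19, 10.4 and 5.65 CPM after cediranib. In the Combination tumors it was at 1.51, 1.18 and 2.04 CPM. The Combination tumors were thus the lowest, followed without overlap by Trametinib, while Cediranib and Control overlapped. Combined treatment lowered Pdgfb 6.05-fold against control (log2 fold change -2.60, SE 0.37, FDR = 0.00237 by edgeR) and 4.67-fold against cediranib (-2.22, SE 0.37, FDR = 0.00549). Both calls held under all 13 alternatives to the fit. Trametinib alone gave a change of -1.33 (SE 0.34, FDR = 0.0407) that was past the FDR threshold but short of the log2 minimum of 1.5. Its FDR was above 0.05 without Control 2 (0.122), Control 3 (0.142), Trametinib 1 (0.118), Trametinib 2 (0.0749) or Trametinib 3 (0.134). It was also above 0.05 without the pair of libraries rich in muscle transcripts (0.171) and with only the groups compared (0.0592). In 5 of 13 alternatives this FDR was under 0.05. Between Combination and Trametinib the difference was -1.27 (SE 0.37), which missed the threshold (FDR = 0.111).

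Pdgfa, the ligand of PDGFRα (ENSMUSG00000025856, chr5:138976014-138997370, minus strand), divided the tumors by trametinib, as Pdgfb did. It was at 5.45, 8.41 and 10.4 CPM in the controls and at 6.19, 8.51 and 9.0 CPM after cediranib. With trametinib it measured 2.00, 3.61 and 1.59 CPM, and with both drugs 2.32, 2.18 and 3.62 CPM. No tumor given trametinib reached the lowest tumor without it, and within each side the groups overlapped. Trametinib lowered Pdgfa 3.40-fold against control (log2 fold change -1.77, SE 0.35, FDR = 0.0119), and the combination lowered it 2.97-fold (-1.57, SE 0.35, FDR = 0.0172). Against cediranib the combination differed by -1.54 (SE 0.35, FDR = 0.0220). These 3 single-group calls were close to the thresholds. The first was lost without Trametinib 1 (FDR = 0.0536) or Trametinib 3 (FDR = 0.0521). The call against control in the combination was lost without Control 2 (FDR = 0.0512), Control 3 (0.0708), Combination 1 (0.0634) or Combination 2 (0.0672), and that against cediranib without Cediranib 2 (0.0564), Cediranib 3 (0.0644), Combination 1 (0.0818) or Combination 2 (0.0844). The antisense gene 6330403L08Rik shares 813 of the 3119 exon bases of Pdgfa. It had 30 counts over the 12 libraries, at up to 0.808 CPM. Without a known strand setting, reads of the shared bases cannot be told apart.

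Because Pdgfa divided the 12 tumors by trametinib, a stretch before a start of it in RefSeq (GRCm38.p6, chr5:138995038-138995194, minus strand) is shown with that of Pdgfra, which divided them in the opposite direction (chr5:75152001-75152250, plus strand). The Pdgfa start is an internal one, so the stretch lies inside the gene as the count table bounds it, and only the 157 of 250 bases before the first annotated exon base are printed. For Pdgfra all 250 are. Both are in lower case throughout, since neither holds a letter match to the motifs searched.

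Pdgfa: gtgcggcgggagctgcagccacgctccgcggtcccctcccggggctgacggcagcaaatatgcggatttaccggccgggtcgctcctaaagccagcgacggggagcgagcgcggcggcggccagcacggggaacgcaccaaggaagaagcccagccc

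Pdgfra: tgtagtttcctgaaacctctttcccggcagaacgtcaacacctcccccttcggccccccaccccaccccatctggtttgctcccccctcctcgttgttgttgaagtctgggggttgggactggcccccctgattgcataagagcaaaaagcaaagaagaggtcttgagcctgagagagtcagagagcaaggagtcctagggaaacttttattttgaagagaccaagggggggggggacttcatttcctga

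The motifs were searched on both strands of the 250 bases before each start, in 32851 promoter entries, in which 6 of the 8 genes were found. No member's window held the AP-1 letters TGACTCA (found in 4.46% of all entries), the ETS letters CCGGAAGT (2.88%) or the EGR letters GCGNGGGCG (4.70%). The GC box letters GGGCGG, present in 32.7% of entries, were found for Kit, Kitl and Pdgfa, the last of these outside the stretch printed. Kitl and Pdgfd held the TATA letters TATAAA, as did 12.4% of entries. A missing match says only that these letters are not in the window.

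Pdgfc, a ligand that binds PDGFRα after cleavage (ENSMUSG00000028019, chr3:81036416-81214040, plus strand), went the other way from Pdgfa and Pdgfb after trametinib, without passing the test. It was at 1.02, 1.72 and 2.02 CPM in the controls and at 5.72, 12.7 and 2.18 CPM after trametinib, groups that did not overlap. Cediranib tumors had 0.899, 1.99 and 0.574 CPM and Combination tumors 3.74, 2.45 and 0.464 CPM, so both overlapped with the controls. The difference for trametinib was 2.10 on the log2 scale (SE 0.72, FDR = 0.118). Without Trametinib 2, the highest tumor, it was 1.31 (FDR = 0.375). DESeq2 called it (log2 fold change 2.10, FDR = 0.0410). The antisense gene Gm16000 shares 147 exon bases with Pdgfc and had 97 counts over the 12 libraries, and without a known strand setting their reads cannot be told apart.

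Pdgfd, a ligand of PDGFRβ (ENSMUSG00000032006, chr9:6168584-6378845, plus strand), had 4 counts over the 3 controls, 3 after trametinib, 1 after cediranib and 6 after the combination. Its highest level was 0.363 CPM, in Combination 2. A count of 0 in a library allows up to 3 counts, or 0.251 to 0.349 CPM at these depths, by counting error alone. No difference in Pdgfd was detectable at this depth.

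The captured reads of the ligands were also summed per kb, with shares that depend on each gene's probes. In these sums, the 4 PDGF ligands were at 3.33, 5.74 and 6.71 CPM per kb in the controls and at 1.84, 1.58 and 1.8 CPM per kb in the Combination tumors, without overlap. The log2 difference was -1.54 (exact permutation test, two-sided, p = 0.1, the smallest that 3 against 3 tumors allow, and 0.2 after Benjamini-Hochberg adjustment over 6 such tests). Trametinib alone differed by -0.84 (exact p = 0.2, adjusted 0.3) and cediranib by -0.17 (exact p = 0.7, adjusted 0.7). Pdgfc made up 5.90% to 6.03% of the sum in the controls and 24.8% to 52.6% after trametinib. In the combination its share ran from 5.06% to 39.8%. Pdgfb made up 39.9% to 47.1% in the controls and 18.0% to 27.2% in the combination.

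**Figure D2:**
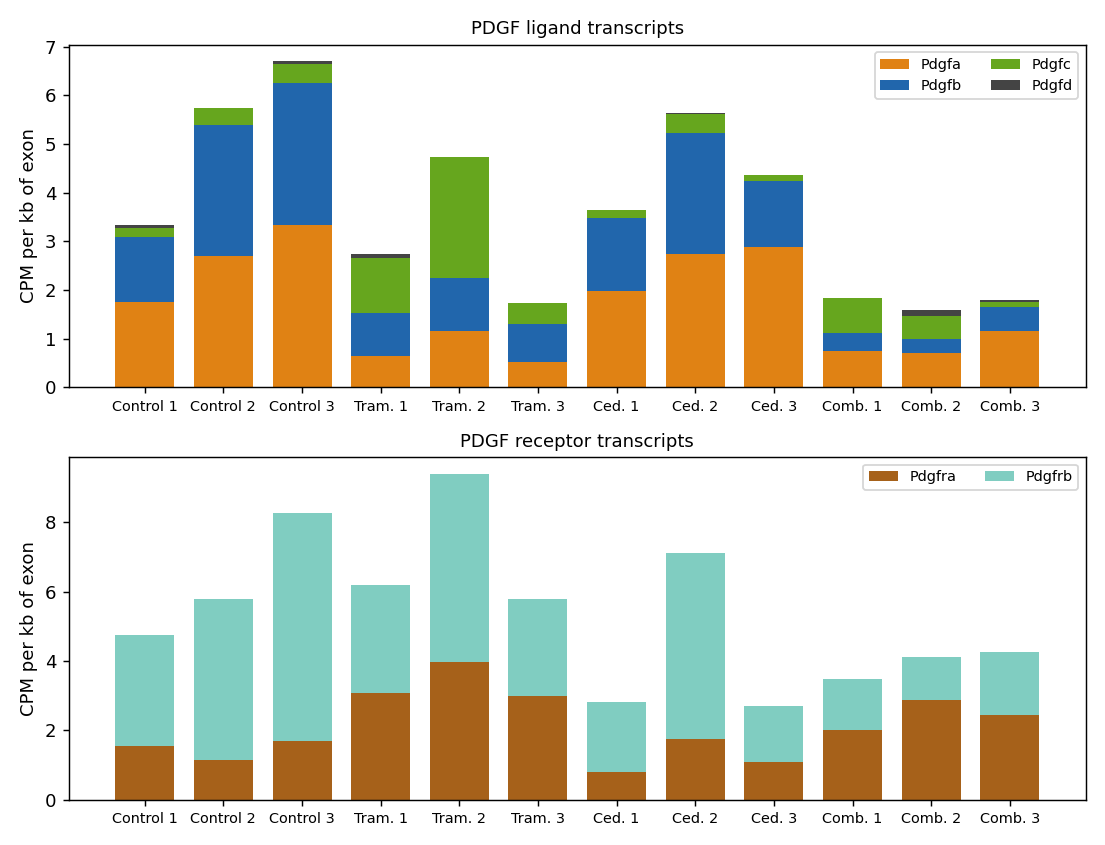
Stacked levels of captured reads in CPM per kb of exon (vertical axes from 0) of the 4 PDGF ligands (upper) and of the PDGF receptors (lower) in each tumor; Tram., Ced. and Comb. are the Trametinib, Cediranib and Combination groups. The Combination tumors and Trametinib 3 have the lowest ligand sums, between 1.58 and 1.84 CPM per kb, and the Combination tumors have a higher captured level of Pdgfra than of Pdgfrb.

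Pdgfra, the receptor of mesenchymal cells (ENSMUSG00000029231, chr5:75152292-75198215, plus strand), was at 15.6, 11.7 and 16.9 CPM in the controls. It was at 30.9, 39.9 and 29.9 CPM after trametinib and at 7.99, 17.7 and 10.9 CPM after cediranib. The Combination tumors had 20.2, 28.9 and 24.5 CPM, below every Trametinib tumor and above every control. Pdgfra rose 2.28-fold with trametinib (log2 fold change 1.19, SE 0.27, FDR = 0.0212), past the FDR threshold but short of the minimum of 1.5. This FDR was above 0.05 without Control 1 (0.0540), Control 2 (0.0852) or Trametinib 2 (0.0754), and 0.196 without the pair of libraries rich in muscle transcripts. The combination differed from control by 0.74 (SE 0.27, FDR = 0.0999) and from cediranib by 1.01 (SE 0.27, FDR = 0.0423). The last FDR was above 0.05 without Cediranib 1 (0.126), Cediranib 3 (0.112), Combination 1 (0.0542), Combination 2 (0.124) or Combination 3 (0.0929). It was also above 0.05 with only the groups compared (0.0935) and without the muscle-rich pair (0.0508). Pdgfra shares exon bases with Gm42802, Gm42803 and Mir7025, which had 8, 3 and 9 counts in all 12 libraries.

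Pdgfrb, the receptor of pericytes (ENSMUSG00000024620, chromosome 18, plus strand), had its lowest mean in the Combination tumors, with 7.98, 6.81 and 9.93 CPM. The controls had 17.5, 25.3 and 36.1 CPM. Trametinib tumors had 17.0, 29.7 and 15.3 CPM and Cediranib tumors 11.1, 29.3 and 8.80 CPM, so each drug alone overlapped with the controls, and Cediranib 3 lay below Combination 3. Pdgfrb fell 3.18-fold in the combination against control (log2 fold change -1.67, SE 0.44, FDR = 0.0351). The call held under 7 of 13 alternatives. It was lost without Control 2 (FDR = 0.0782), Control 3 (0.127), Combination 1 (0.0976), Combination 2 (0.110) or Combination 3 (0.0698), and without the muscle-rich libraries (0.0730). Trametinib tumors all lay above the Combination tumors (-1.32, SE 0.44, FDR = 0.152). Against cediranib, where the groups overlapped, the combination differed by -0.99 (SE 0.44, FDR = 0.197).

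The receptors were also compared as a share of captured reads, which is not a share of transcripts but changes between tumors only with the relative level of both genes. Per kb, Pdgfra made up 32.8%, 20.1% and 20.4% of the summed PDGF receptor reads in the controls. The share was 49.8%, 42.4% and 51.6% after trametinib and 58.0%, 69.8% and 57.4% after the combination. Both sets lay wholly above the controls, by 23.5 and 37.4 percentage points (exact permutation test, two-sided, p = 0.1 for each, the smallest possible here, adjusted 0.2). Cediranib tumors had 28.3%, 24.8% and 40.4% and overlapped with the controls (difference 6.73 points, exact p = 0.4, adjusted 0.48).

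Kitl, the gene of stem cell factor (ENSMUSG00000019966, chr10:100015630-100100416, plus strand), was at 109.6, 51.0 and 28.4 CPM in the controls, with Control 1 far above the others. It was at 149.7, 108.2 and 213.1 CPM after trametinib, at 50.9, 61.8 and 88.6 CPM after cediranib and at 136.6, 166.4 and 129.7 CPM after the combination. The Combination tumors lay above every tumor without trametinib, and Trametinib 2 lay just below Control 1. Neither single-group difference passed: 1.32 for trametinib (SE 0.41, FDR = 0.0797) and 1.19 for the combination (SE 0.40, FDR = 0.0818). Without Control 1 both did, at 1.97 (FDR = 0.00922) and 1.86 (FDR = 0.0103). DESeq2 gave FDRs of 0.00910 and 0.0154.

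The receptor Kit (ENSMUSG00000005672, chr5:75574916-75656722, plus strand) was low and uneven. It was at 2.47, 2.13 and 14.3 CPM in the controls, with 142 counts in Control 3. Trametinib tumors had 2.09, 0.349 and 0.251 CPM, the last pair from 3 counts each. Cediranib tumors had 1.6, 6.05 and 1.44 CPM and Combination tumors 3.33, 4.81 and 4.92 CPM. All Trametinib tumors were below all controls and all Combination tumors, but neither difference passed: -2.77 against control (SE 0.92, FDR = 0.101) and 2.25 for combination against trametinib (SE 0.92, FDR = 0.227). Without Control 3 the first was -1.33 (FDR = 0.469), and the difference between Combination and Control changed from -0.53 (SE 0.80, FDR = 0.720) to 0.91 (FDR = 0.553). Kit rested on 3 to 142 counts a library.

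**Figure D3:**
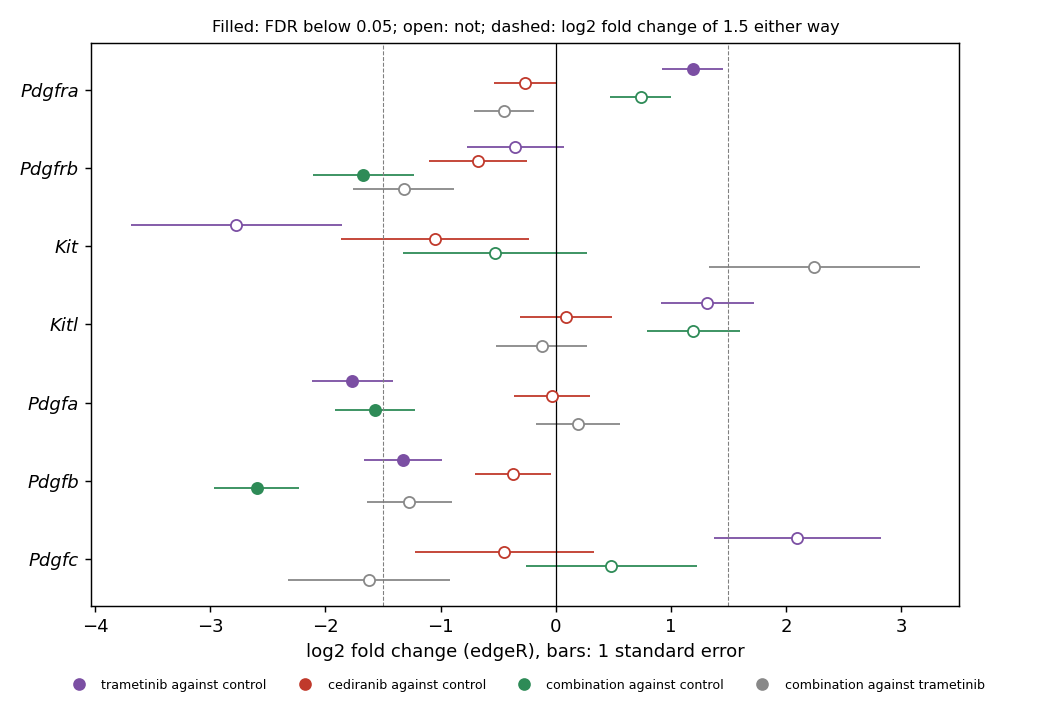
Log2 fold changes from edgeR (horizontal axis) of the 7 genes tested in 4 comparisons, with bars of 1 SE; filled points have an FDR under 0.05 and the dashed lines mark 1.5 either way. Filled points past a dashed line are Pdgfa for trametinib and Pdgfa, Pdgfb and Pdgfrb for the combination, all against control.

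Set against the whole table, a gene was called at an FDR under 0.05 and a log2 fold change of at least 1.5 either way. For trametinib against control this called 1 of the 7 genes tested, Pdgfa, where 2.4% of all genes were called. At the FDR alone 3 of 7 passed, Pdgfra, Pdgfa and Pdgfb, against 6.12% of all genes, and 5 of 7 had groups that did not overlap, against 25.8%. For the combination against control 3 of 7 were called, all lower (Pdgfrb, Pdgfa and Pdgfb), where 3.61% of all genes were called and 1.71% called lower. The same 3 passed the FDR alone, against 9.98% of all genes, and 5 of 7 did not overlap, against 31.3%. For the combination against cediranib 2 of 7 were called, both lower (Pdgfa and Pdgfb), against 2.45% called and 1.16% called lower. With Pdgfra, 3 of 7 passed the FDR alone in it, against 7.68%, and 4 of 7 did not overlap, against 28.4%. Without the muscle-rich libraries, an alternative chosen after the data were seen, these comparisons called 1, 2 and 2 of the 7 genes, Pdgfrb being lost in the second.

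Cediranib alone called 0 of the 7 genes by edgeR, and 0% of all genes, and DESeq2 called 0 of 7 and 10 of all genes. At an unadjusted p under 0.05 the count was 0 of 7, against 4.32% of all genes, and the count without overlap was also 0, against 7.76%. The largest differences were -1.05 for Kit (SE 0.82) and -0.68 for Pdgfrb (SE 0.43), each with an FDR of 0.999. For the combination against trametinib 0 of 7 were called, against 0.675% of all genes. Here 4 of 7 had an unadjusted p under 0.05 (Pdgfrb, Kit, Pdgfb and Pdgfc), against 17.9% of all genes, and 4 of 7 did not overlap, against 24.2%.

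The design crosses the drugs, so each can also be estimated over all 12 tumors. The effect of trametinib, the mean of Trametinib and Combination against that of Control and Cediranib, called Pdgfa (-1.65, SE 0.25, FDR = 0.000951) and Pdgfb (-1.78, SE 0.25, FDR = 0.000652), both lower. That is 2 of 7, against 3.3% of all genes called and 1.71% called lower. Pdgfra rose by 1.10 (SE 0.19, FDR = 0.00217) and Kitl by 1.21 (SE 0.29, FDR = 0.0130), past the FDR alone, so that 4 of 7 passed it, against 16.7% of all genes. Mean levels without and with trametinib were 7.995 and 2.55 CPM for Pdgfa, 8.53 and 2.71 CPM for Pdgfb, 13.4 and 29.0 CPM for Pdgfra, and 65.0 and 150.6 CPM for Kitl. The 6 tumors with the drug did not overlap with the 6 without it for Pdgfra, Pdgfa and Pdgfb, 3 of 7 against 7.99% of all genes. All 4 of these stayed past the FDR under each of 18 alternatives, with highest FDRs of 0.0157 for Pdgfra and 0.0372 for Kitl. The corresponding effect of cediranib called 0 of 7, against 0.62% of all genes. At an unadjusted p under 0.05 it had 2 of 7 (Pdgfrb -0.999, SE 0.31, FDR = 0.143, and Pdgfb -0.82, SE 0.25, FDR = 0.138), against 14.6%. The interaction, which asks whether cediranib had a different effect with trametinib than without it, called 0 of 7 and 0% of all genes by edgeR, and DESeq2 called 0 of 7 and 28 of all genes. Kit alone had an unadjusted p under 0.05 in it (3.29, SE 1.23, FDR = 0.682), against 7.05% of all genes.

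Markers of several cell types moved with these genes, and their part in the results was not tested. Endothelial markers, 11 of 12 tested, summed to 256.7 to 512.9 CPM in the controls, 114.4 to 175.3 CPM after trametinib, 160.2 to 400.0 CPM after cediranib and 81.9 to 146.3 CPM after the combination. Of the 11, 5 were called lower after trametinib and 5 after the combination, with median log2 changes of -1.82 and -1.81, where the median of all genes tested was 0.01 and 0.00. They include Pecam1 (-2.38 and -2.93), Tie1 (-1.97 and -2.43) and Cdh5 (-1.99 and -2.37). Pdgfb and these sums were both below all controls in the Trametinib and Combination tumors. The marker sums of these groups overlapped, and their Pdgfb levels did not. Cediranib 3 had a marker sum of 160.2 CPM and 5.65 CPM of Pdgfb, and Trametinib 2 had 175.3 and 4.54 CPM. Eng, a marker not called after trametinib (0.03, FDR = 0.962), made 33.0 and 61.45 CPM of these sums, and their order rests on it.

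Pericyte and smooth muscle markers, 9 of 11 tested, summed to 100.1 to 486.1 CPM in the controls and 196.5 to 1871 CPM after trametinib. They summed to 92.7 to 242.4 CPM after cediranib and 91.2 to 248.6 CPM in the combination. After cediranib 7 of the 9 were lower than in the controls, with a median log2 change of -0.78 and 0 called. In the combination 4 were called lower, Rgs5 (-1.90, FDR = 0.0433), Abcc9 (-3.36, FDR = 0.0158), Mcam (-3.30, FDR = 0.00670) and Tagln (-2.42, FDR = 0.0424). Notch3, a receptor of mural cells, was called higher (1.92, FDR = 0.0110), and the median of the 9 was -1.90. After trametinib only Mcam was called (-2.12, FDR = 0.0385), with a median of -0.11. The sum was highest in Trametinib 2, at 1871 CPM, of which Acta2, an actin of smooth muscle, made 948.6 CPM and Des, the desmin of all muscle, 857.9 CPM. This is 1 of the libraries rich in skeletal muscle transcripts. The other, Control 2, had a sum of 475.8 CPM, of which Des made 273.6 CPM.

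Fibroblast markers, 10 of 12 tested and led by Col1a1 and Col1a2, summed to 2587, 7898 and 21560 CPM in the controls and to 17390, 37680 and 9042 CPM after trametinib. After cediranib they summed to 3925, 7227 and 1978 CPM and in the combination to 6303, 3480 and 5695 CPM. Median log2 changes were 1.19 after trametinib, -0.997 after cediranib (0 called) and -0.20 after the combination, and 1 gene, Fbln1, was called higher in the first and last (1.61 and 1.59). Pdgfra was above all controls in both the Trametinib and the Combination tumors.

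**Figure D4:**
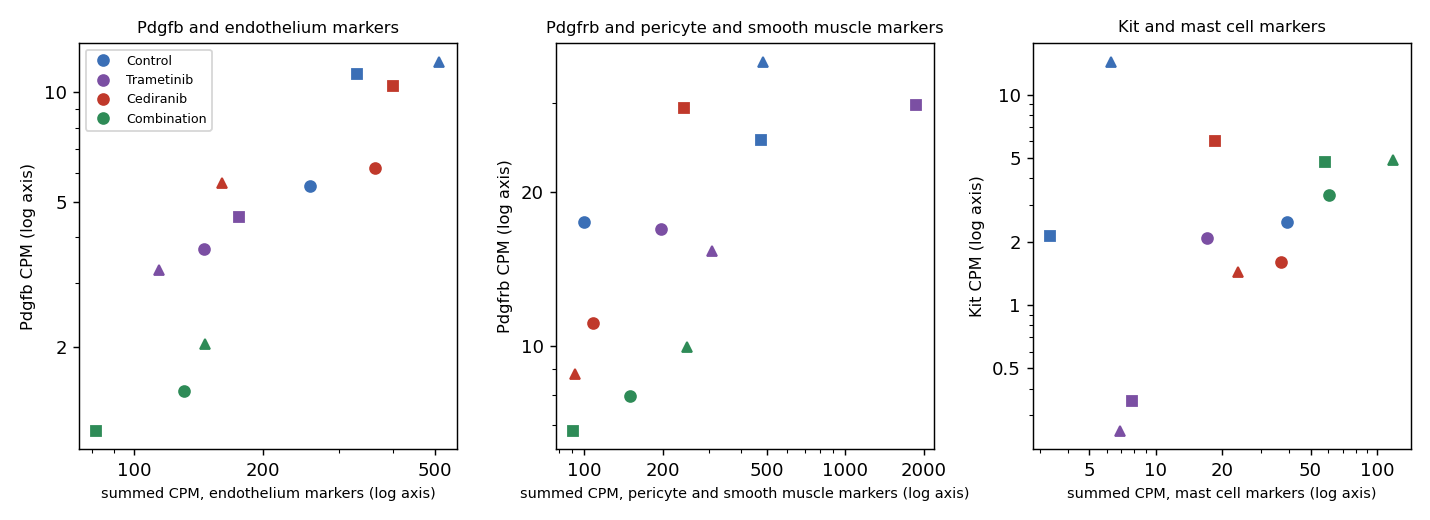
Level of Pdgfb, Pdgfrb and Kit in TMM-scaled CPM (vertical axes) against the summed CPM of endothelial, of pericyte and smooth muscle, and of mast cell markers (horizontal axes) in the 12 tumors; all axes are logarithmic, and circles, squares and triangles are replicates 1, 2 and 3. Combination tumors hold the lowest Pdgfb levels and the highest mast cell sums, from 58.2 to 118.3 CPM, while Control 3 holds the highest Kit level beside a mast cell sum of 6.26 CPM.

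Mast cell markers, 4 of 9 tested, summed to 3.34 to 39.0 CPM in the controls, 6.87 to 17.1 CPM after trametinib, 18.5 to 36.7 CPM after cediranib and 58.2 to 118.3 CPM in the combination. Cpa3, a protease of mast cell granules, was called higher in the combination (3.40, FDR = 0.0123), and the median of the 4 was 2.23. Tpsab1 and Hdc had the highest levels, while Fcer1a, a chain of the IgE receptor found on mast cells, was at 0 in all 12 tumors. A count of 0 also depends on whether the exome probes capture the gene. Control 3, with the most Kit, had a mast cell sum of 6.26 CPM. In the melanocyte list, 1 of 8 genes was tested (Mitf) and 0 were called in any comparison with control, and Tyr, Tyrp1 and Dct stayed at or below 1.53 CPM. Epidermal markers, 20 of 22 tested, were called higher for 9 genes in the combination (median 3.25) and lower for 1 after trametinib, Ivl (median -2.85). After cediranib 19 of the 20 were higher than in the controls, with a median of 2.37 and 0 called, and the list summed to 360.9, 110.8 and 378.1 CPM against 98.3 to 181.5 CPM in the controls.

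Platelets are a store of PDGF, and of 2 of 7 platelet and megakaryocyte genes tested Pf4 was called lower after trametinib (-1.88, FDR = 0.0311) and 0 after the combination. Of 10 macrophage genes, all tested, 0 were called after trametinib and 2, Cd68 and Fcgr1, lower after the combination. All 10 were lower in the combination than in the controls, 4 of them at an FDR under 0.05. The median was -1.17 in the combination and -0.11 after trametinib. Csf1r, described next, is on this list. Adipocyte genes, 4 of 7 tested, had 0 calls against control, as had 7 of 8 skeletal muscle genes tested.

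Among the closest relatives of these receptors, Csf1r, the class III receptor of macrophages, was at 67.7 to 150.6 CPM in the controls and at 42.1 to 51.8 CPM in the combination. It passed the FDR alone in the combination (-1.28, SE 0.33, FDR = 0.0311) and not after trametinib (-0.21, SE 0.32, FDR = 0.773). Its ligands Csf1 and Il34 were at means of 5.33 and 0.451 CPM in the controls and 4.24 and 0.585 CPM in the combination, and were not called. Flt3 and its ligand Flt3l did not pass the filter.

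Of the proteins that carry the receptors' signal inside the cell, 36 of 37 listed genes were tested. Their medians were -0.10 after trametinib, -0.07 after cediranib and -0.13 after the combination. Lyn, a SRC-family kinase that associates with KIT, was called lower after trametinib, at 94.0, 97.4 and 78.4 CPM in the controls and 32.7, 24.6 and 32.0 CPM after the drug (-1.59, SE 0.14, FDR = 0.000102). It was the only call in the list against control. Of 13 genes that cleave or bind the ligands 11 were tested, with medians of -0.27, -0.15 and -0.14. Mmp9, a protease that can release stem cell factor, was called lower after trametinib (-2.66, SE 0.72, FDR = 0.0497). Lrp1, a co-receptor that binds PDGFRβ, was called higher in the combination, from 1865, 1376 and 1522 CPM to 4408, 4701 and 5153 CPM (1.58, SE 0.23, FDR = 0.00307).

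The genes whose log2 CPM followed each member most closely over the 12 tumors are given as a description, since all points share 4 treatments. Pdgfra was followed by Cav1 (Pearson r = 0.965) and Zeb1 (0.960), and Pdgfrb by Cxcl14 (0.963) and Nid2 (0.947), the gene of a basement membrane protein. For Pdgfb they were Pcdh12 (0.962), a protocadherin of endothelium, and Sept11 (0.962). For Pdgfa they were Oaf (0.958) and Unc5b (0.956), a netrin receptor of vessels, and for Pdgfc Sec24d (0.916) and Sumo3 (0.903). Kitl was followed by Calcoco1 (0.958) and Hspa2 (0.954), and Kit by D1Ertd622e (0.922) and Slc2a3 (0.890), a glucose transporter. Among the members themselves, Pdgfa and Pdgfb rose and fell together (r = 0.821) and Kitl ran opposite to Pdgfa (r = -0.886).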

How the data were processed

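RNA of 12 SVR tumors, 3 per treatment by title and treatment label, was captured with exome probes, so a count also depends on a gene's probes. The authors called bases with bcl2fastq 1.8.4, aligned with STAR 2.7.1a (GRCm38) and summed reads by gene in featureCounts 1.6.0. The deposited values are raw counts, not normalized. Not given in the sources used here were the annotation release, the strand setting and how multi-mapped reads were treated. Exon lengths are those of the table, and overlaps were taken from GENCODE M21.

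Counts were scaled with TMM, filtered with filterByExpr (minimum count 10, minimum total 15) and fitted with the quasi-likelihood test of edgeR 4.0.16 (R 4.3.3). All 12 libraries shared 1 fit, with p-values adjusted by Benjamini-Hochberg over 12897 genes. The common coefficient of variation was 27.2%. The threshold of an FDR of 0.05 with a log2 fold change of 1.5 is that of the study. Log2 CPM used a prior count of 2. Alternatives were other scalings, no filter, DESeq2 1.42.0, only the groups compared, a replicate block and leaving out each library. The script was tested on simulated data. The lists covered class III relatives, signal transducers, ligand processing and binding, and markers of pericytes and smooth muscle, fibroblasts, endothelium, macrophages, mast cells, melanocytes, platelets, epidermis, adipocytes and skeletal muscle. Named were all members, up to 4 called genes a list and comparison, the class III relatives, the 2 genes of highest mean in a marker list that moved, and the 2 protein-coding genes most correlated with each member. Marker genes given at 0 or as an identity check were named after their values were seen. Members and lists were chosen with earlier results of these data known. RefSeq promoters matched 6 of 8 members. Intervals and limits at 0 cover counting error only.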

Additional observations from a re-analysis of the deposited data

How the results depend on the processing

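No member's call changed direction. For trametinib against control, 1 member was called, but 3 with no filter and 3 with DESeq2 (Kit, Pdgfa and Pdgfc in both), and 0 to 3 when 1 library was left out. For the combination against control, 3 were called, and 1 to 4 when 1 library was left out, Pdgfb always among them. For the combination against cediranib, 2 were called, but 1 with library totals alone (Pdgfa at -1.42) and 1 to 2 when 1 library was left out. With no filter, 2 were called for the combination against trametinib (Kit and Pdgfc) and 1, Kit, for the interaction, where the filtered fit called 0 in each. The cause of these further calls was not tested. The combination also called Pdgfrb and Pdgfb only (Pdgfa at -1.43) with library totals alone. Same-numbered tumors did not deviate together (3 of 18 pairs had a correlation over 0.1, from -0.22 to 0.36), and the replicate block changed no member's call: 1 for trametinib and 3 for the combination against control, 0 for the combination against trametinib and 2 against cediranib. With it the FDR of Pdgfb for trametinib against control was 0.0515 and no longer under 0.05.

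Over all genes, calls ranged from 181 to 687 for trametinib (310 as reported), 0 to 324 for cediranib (0), 237 to 1129 for the combination (466), all against control, 0 to 773 for the combination against trametinib (87; 57 with the replicate block), 188 to 637 against cediranib (316), 375 to 701 for the trametinib effect (425), 1 to 665 for the cediranib effect (80) and 0 to 261 for the interaction (0). The highest were those with no filter. Depth limits what can be said of Pdgfd, with 0 to 4 counts a library.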

Other observations

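Beside these receptors, Furin, the convertase that processes PDGF-A and PDGF-B precursors, was at 130.6, 148.5 and 194.0 CPM in the controls, 83.1, 90.9 and 88.0 CPM after trametinib and 93.4, 117.7 and 92.4 CPM after the combination, below every control in both groups. It passed the FDR alone after trametinib (-0.85, SE 0.15, FDR = 0.00698) and after the combination (-0.64, SE 0.15, FDR = 0.0241). Furin was not called at the log2 minimum of 1.5 and is named after its values were seen.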
